A study of Mus musculus with 9 samples.

Results

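The genes described here are those of respiratory complex I whose symbols begin with Nduf, which cover most nuclear-encoded subunits of the enzyme and a family of its assembly factors. Membership follows from the symbol in the array annotation alone. The annotation holds 52 such symbols, and 44 of them had at least 1 probe set that named no other gene. The other 8 (Ndufa11, Ndufs6, Ndufa11b, Ndufs6b, Ndufb4b, Ndufb4c, Ndufs5-ps and Ndufab1-ps) shared every probe set with another gene and were not analysed here as single genes. The 44 measured genes are set among 18193 genes that could be named and tested.

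RNA was measured in 4 db/db and 5 BKS liver samples, each on its own single-colour Affymetrix array. The db/db samples are of the strain BKS.Cg-Leprdb, which carries a mutated leptin receptor gene in every tissue and becomes obese and diabetic. The BKS samples are of the strain C57BL/KSlepr+/+, with the intact gene. All were male, 14 weeks old and kept on standard chow with free access to water. The labels number the samples within each group but do not name the animals, so a p-value here speaks of the scatter among samples, part of which may be technical.

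Complex I is the entry of electrons from NADH into the respiratory chain of mitochondria. It passes them through a chain of iron-sulfur clusters to ubiquinone and pumps protons across the inner membrane. The enzyme is L-shaped: a peripheral arm in the matrix binds NADH and carries the clusters, and a membrane arm moves the protons. Its core subunits come from nuclear and from mitochondrial DNA, many further subunits surround the core, and assembly factors that are absent from the finished enzyme put the modules together. In liver, complex I reoxidises the NADH made by fatty acid oxidation and the tricarboxylic acid cycle. None of the 7 subunits encoded by mitochondrial DNA was measured by a probe set of its own.

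Levels are given as log2(signal + 16) after quantile normalization, where signal is the deposited intensity, and differences are db/db minus BKS on that scale. They were tested with limma, two-sided, with Benjamini-Hochberg adjustment over all 18193 genes and a threshold of 0.05. Median signals per array ran from 67.4 to 110.8, and precision is limited by having only 9 arrays. The arrays also fall into 2 sets that cross the genotypes. The 3 controls for 18S ribosomal RNA had a geometric mean signal of 941 to 6922 on db/db 3, db/db 4, BKS 4 and BKS 5 ("high 18S" arrays) and 12.5 to 22.8 on the other 5 ("low 18S" arrays). The ratio of the 3' to the 5' control probe set of Actb, a sign of RNA integrity, was 1.62 and 1.70 on db/db 1 and db/db 2, 3.18 and 3.98 on db/db 3 and db/db 4, and 3.32, 1.68, 1.80, 5.93 and 3.83 on BKS 1 to BKS 5. Gapdh and Pcx also had their higher ratios on db/db 3, db/db 4, BKS 1, BKS 4 and BKS 5. The margin was small for Gapdh, and the ratio of Tfrc, highest on db/db 1 (13.9), did not follow this split. All 4 probe sets of Lepr, the mutated gene, were dim, none passed the test (limma, adjusted p from 0.288 to 0.856), and they do not check the genotype. The hepatocyte markers were bright in both groups, with a summed signal of 168398 to 274849 in db/db and 182874 to 341334 in BKS liver over 7 genes, and none of the 7 passed the test in the limma fit (at an unadjusted p under 0.05, 1 was higher and 2 were lower).

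A single Nduf gene, Ndufb7, was called between db/db and BKS liver, and it rose 1.42-fold. The counts were 1 of 44 higher and 0 of 44 lower in the limma fit, where 2.89% of all genes were called higher and 2.6% lower. At an unadjusted p under 0.05, 10 members were higher and 1 was lower (all genes 8.76% and 8.87%). Differences were positive for 30 of the 44 members (49.7% of all genes), and their median was 0.09 on the log2 scale, against -0.00 over all genes. The 95% interval of the difference lay inside 1.5-fold in both directions for 29 of 44 members, or 65.9%, which held for 17.6% of all genes. The members are bright, with a median level of 13.18 against 7.43 over all genes, and bright genes have narrower intervals. Among the 1820 brightest genes the interval lay inside 1.5-fold for 56.4%, and 9.78% were called higher and 8.08% lower. At an unadjusted p under 0.05, 374 of these 1820 genes were higher and 354 were lower (limma). By role, the interval lay inside 1.5-fold for 25 of 34 subunits and 4 of 8 Ndufaf assembly factors. In bulk liver a change in the amount of RNA per cell cannot be told apart from a change in the share of cells that hold it.

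**Figure D1:**
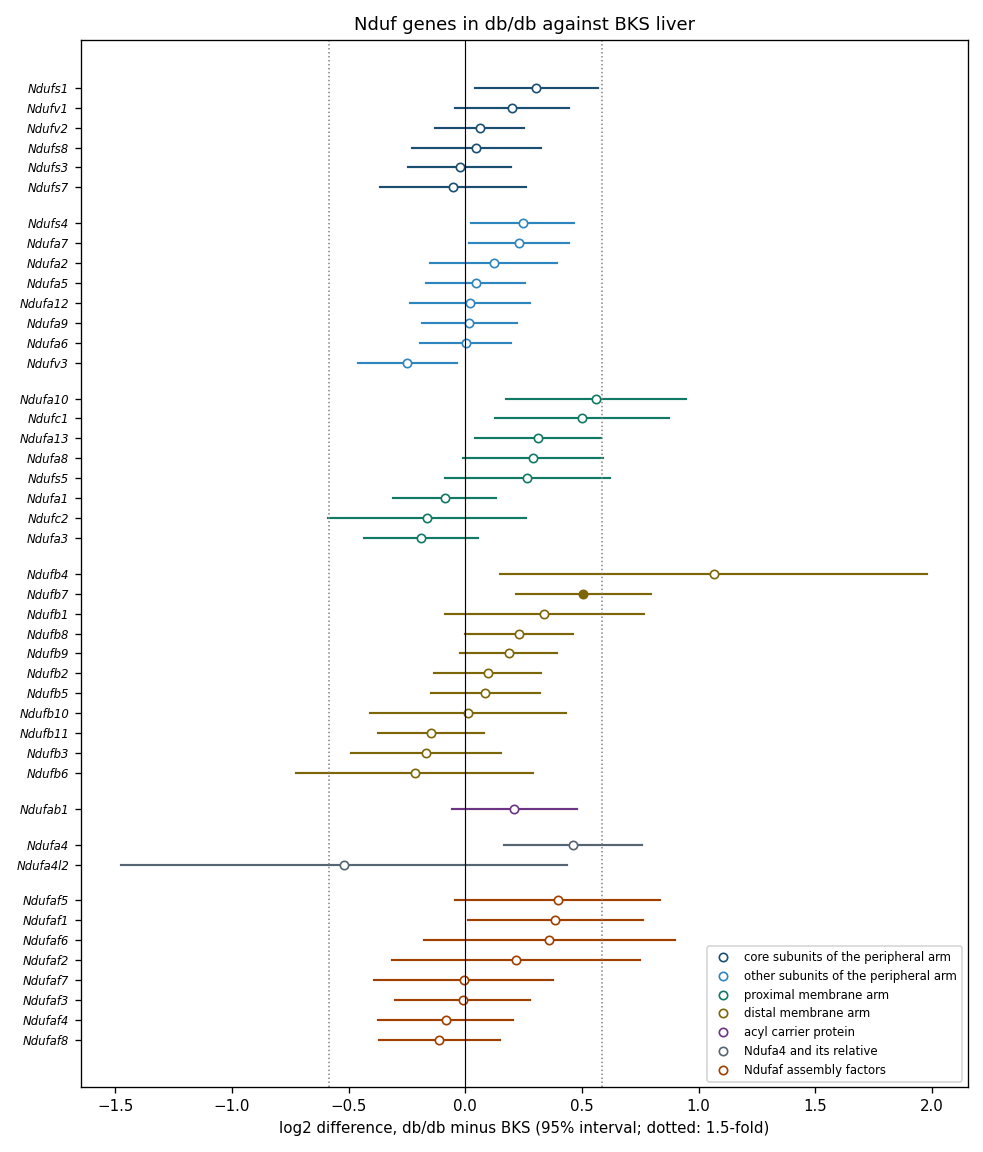
Difference in log2(signal + 16), db/db minus BKS, with its 95% interval (limma), for the 44 Nduf genes grouped by role; dotted lines mark 1.5-fold in either direction and the filled point is the called gene. Ndufb7 (0.51) is the single filled point, most intervals lie between the dotted lines, and the wide intervals belong to Ndufb4 (1.07) and Ndufa4l2 (-0.52).

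Groups without overlap, in which every db/db array lay on 1 side of every BKS array, occurred for 5 members upward (Ndufb7, Ndufa4, Ndufs1, Ndufs4 and Ndufb9) and for Ndufv3 downward. Over all genes the shares were 4.73% and 4.42%. Among the 1820 brightest genes, 238 lay without overlap upward and 202 downward. The separation depended on the scaling. Fewer members were separated without quantile normalization or with median centring. The shares of all genes in either direction were then 8.88% and 6.65%, against 9.15% as reported. Relative to each gene's mean over all arrays, the median over the 44 members was -0.01, 0.08, 0.15 and 0.05 on db/db 1 to db/db 4 and -0.09, -0.08, -0.09, 0.04 and 0.06 on BKS 1 to BKS 5. These medians overlap between the groups, with db/db 3 highest and the high 18S arrays BKS 4 and BKS 5 above the other BKS arrays. Without db/db 3 the median difference of the members was 0.07, and without BKS 4 it was 0.13.

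The promoters of the members that the results turn on are shown with short motifs of factors known to drive respiratory chain genes. The 3 motifs were searched on both strands: GCGCA, any base and GCGC for NRF1, CCGGAAG for ETS factors such as GABP, and AAGATGGC for YY1. RefSeq promoter windows (GRCm38.p6, 250 bases before to 50 bases after the transcription start) were matched for 42 of the 52 members, which gave 44 windows. The NRF1 motif was in 22.7% of these windows and in 4.60% of the 32851 windows of all genes, the YY1 motif in 18.2% against 2.75%, and the ETS motif in 13.6% against 8.86%. A match describes the letters only. The 4 windows below belong to Ndufb7, the called gene, to Ndufa5 and Ndufs4, which each had a called second probe set, and to Ndufc1, which was called with the 18S split in the fit. They were chosen with their values and matches known. Capitals mark the motif: ETS in Ndufb7, NRF1 in Ndufa5, and YY1 in Ndufs4 and Ndufc1. The windows of Ndufa4 and Ndufa10, which were also called with the 18S split in the fit, held none of the 3 motifs.
Ndufb7 (chr8:83566508-83566807, plus strand, GRCm38.p6): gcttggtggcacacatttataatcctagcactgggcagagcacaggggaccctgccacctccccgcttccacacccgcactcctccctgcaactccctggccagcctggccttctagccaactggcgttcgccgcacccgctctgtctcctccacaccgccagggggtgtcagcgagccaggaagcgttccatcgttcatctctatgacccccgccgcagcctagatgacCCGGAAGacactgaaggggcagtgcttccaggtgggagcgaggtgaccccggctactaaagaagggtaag
Ndufa5 (chr6:24527641-24527940, minus strand, GRCm38.p6): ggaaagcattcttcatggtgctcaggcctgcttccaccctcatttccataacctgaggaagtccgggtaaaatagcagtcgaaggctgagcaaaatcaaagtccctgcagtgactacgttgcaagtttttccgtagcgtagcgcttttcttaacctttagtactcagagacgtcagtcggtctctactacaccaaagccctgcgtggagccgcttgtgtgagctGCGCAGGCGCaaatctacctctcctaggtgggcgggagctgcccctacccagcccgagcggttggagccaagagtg
Ndufs4 (chr13:114388045-114388344, minus strand, GRCm38.p6): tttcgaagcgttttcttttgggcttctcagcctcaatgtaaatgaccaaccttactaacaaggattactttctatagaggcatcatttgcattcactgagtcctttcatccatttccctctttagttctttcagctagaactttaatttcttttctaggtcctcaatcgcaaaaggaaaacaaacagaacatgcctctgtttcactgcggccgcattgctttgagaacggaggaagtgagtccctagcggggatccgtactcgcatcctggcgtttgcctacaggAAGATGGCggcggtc
Ndufc1 (chr3:51408906-51409205, minus strand, GRCm38.p6): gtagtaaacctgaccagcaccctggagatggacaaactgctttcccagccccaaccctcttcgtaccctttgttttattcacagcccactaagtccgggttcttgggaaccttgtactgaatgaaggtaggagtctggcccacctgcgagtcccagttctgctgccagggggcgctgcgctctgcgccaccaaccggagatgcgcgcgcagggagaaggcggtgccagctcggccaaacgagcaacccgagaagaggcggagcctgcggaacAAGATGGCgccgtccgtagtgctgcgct
In Ndufb7 and Ndufa5 the motif begins upstream of the start site, at -20 and -26, and in Ndufs4 and Ndufc1 the YY1 motif lies downstream, at 36 and 23, counted from 1 at the first transcribed base. Ndufa5 has another window that is not shown (chr6:24527477-24527776), and there the same NRF1 motif begins at -190.

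Ndufb7, the called member, encodes a small subunit of the distal membrane arm that faces the intermembrane space. Its level was 13.61, 13.93, 13.69 and 13.74 on the db/db arrays and 13.11, 13.56, 12.94, 13.44 and 13.13 on the BKS arrays. The lowest db/db array lay just above the highest BKS array. The difference was 0.51 (SE 0.13, limma adjusted p = 0.0436). It was 0.57 among low and 0.43 among high 18S arrays, and the second probe set of the gene also stood at 0.51. The call is narrow: it held without BKS 2 (adjusted p = 0.0186) or BKS 4 (0.0460), and was lost without any of the other 7 arrays (limma, adjusted p from 0.0624 to 0.120).

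The other 10 measured genes of the distal membrane arm, the end of the proton-pumping arm, gave no call. Differences over the 11 members ran from -0.22 for Ndufb6 to 1.07 for Ndufb4, with a median of 0.10. Ndufb4 had the largest difference of all members and was dim on its own probe set, with signals of 32.5, 62.0, 84.8 and 42.0 on the db/db arrays and 20.8, 68.2, 9.1, 11.5 and 4.3 on the BKS arrays. BKS 2 lay within the db/db values and the other 4 BKS arrays below them. The difference was 1.07 (SE 0.42, limma adjusted p = 0.196), and without BKS 2 it was 1.39 and passed (adjusted p = 0.0448). It also depended on the amount added before the logarithm, with 1.78 for 1 and 0.51 for 64. Ndufb9, a subunit of the LYR family, read 14.51, 14.63, 14.34 and 14.33 on the db/db arrays and 14.24, 14.25, 14.27, 14.30 and 14.27 on the BKS arrays. The groups were close but did not overlap, with a difference of 0.19 that did not pass (SE 0.10, limma adjusted p = 0.348). Ndufb1 and Ndufb8 stood at 0.34 and 0.23, and Ndufb2, Ndufb3, Ndufb5 and Ndufb10 between -0.17 and 0.10. The lowest p among negative differences was that of Ndufb11, an X-linked subunit, at -0.15 (SE 0.11, limma adjusted p = 0.530).

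The proximal membrane arm, where the membrane arm joins the peripheral arm, had a median of 0.28 over 8 genes, with no call and with differences of both signs. Ndufa10, an accessory subunit with a nucleoside kinase-like fold on the matrix side, read 13.79, 14.18, 13.69 and 13.62 on the db/db arrays and 13.11, 13.68, 13.57, 12.78 and 13.16 on the BKS arrays. BKS 2 reached the range of the db/db arrays and the other BKS arrays lay below it. The difference was 0.56 (SE 0.18, limma adjusted p = 0.0946), and without BKS 2 it was 0.67 and passed (adjusted p = 0.0430). Ndufc1, a short membrane subunit, read 13.17, 13.13, 13.59 and 13.88 on the db/db arrays and 12.73, 12.79, 12.79, 13.37 and 13.03 on the BKS arrays. In each group its highest arrays were the high 18S ones, and within each 18S set the db/db arrays were above the BKS arrays. The difference was 0.50 (SE 0.17, limma adjusted p = 0.129), and its second probe set stood at 0.53. With the 18S split as a block Ndufa10, Ndufc1, Ndufb7 and Ndufa4 passed (limma, adjusted p = 0.0148, 0.0150, 0.0320 and 0.0375), against 4.11% of all genes called higher in that fit. The share among the brightest genes is not given for it. Ndufa13, also known as GRIM-19, and Ndufa8, a subunit on the intermembrane-space side, stood at 0.31 and 0.29 with limma adjusted p of 0.197 and 0.301. The differences of Ndufs5, Ndufa1 and Ndufc2 were 0.27, -0.09 and -0.16. Ndufa3 had the lowest p among negative differences, at -0.19 (SE 0.11, limma adjusted p = 0.431). Ndufb9, Ndufc1, Ndufa13 and Ndufa8 were chosen for description after their values were seen.

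**Figure D2:**
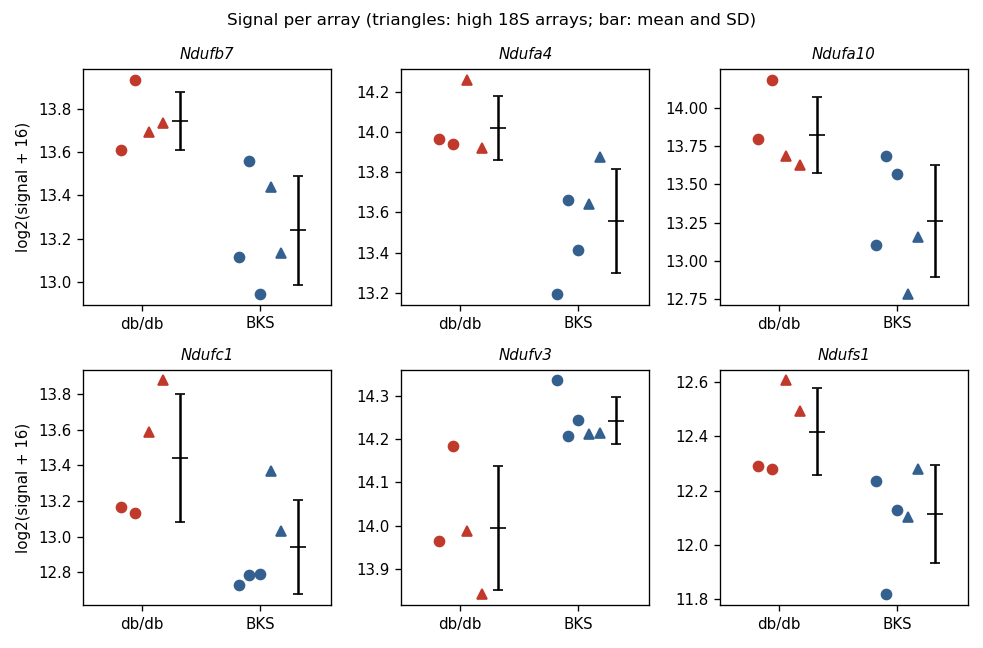
Level per array, log2(signal + 16) after quantile normalization, for 6 Nduf genes, with db/db arrays on the left and BKS arrays on the right of each panel; triangles are high 18S arrays, circles low 18S arrays, and bars give the mean and SD (n = 4 db/db and 5 BKS). The groups do not overlap for Ndufb7, Ndufa4, Ndufs1 and Ndufv3, and they overlap for Ndufa10 and, through BKS 4, for Ndufc1.

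The core subunits of the peripheral arm, which bind NADH and hold the iron-sulfur clusters, had a median of 0.05 over 6 genes and no call. Ndufs1, which carries several of the clusters, read 12.29, 12.28, 12.61 and 12.49 on the db/db arrays and 12.24, 11.82, 12.13, 12.10 and 12.28 on the BKS arrays. The groups touch, since db/db 2 and BKS 5 differ only beyond the second decimal, and both high 18S db/db arrays lie above the others. The difference was 0.30 (SE 0.12, limma adjusted p = 0.198). Ndufv1, the flavoprotein that takes the electrons from NADH, stood at 0.20 (95% interval -0.04 to 0.45). Ndufv2, Ndufs8, Ndufs3 and Ndufs7, the last of which sits at the ubiquinone site, lay between -0.05 and 0.06.

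Among 8 accessory subunits of the peripheral arm the median was 0.03, again with no call. Ndufv3, at the NADH-binding tip, was the only member of all 44 with a negative difference at an unadjusted p under 0.05. Its level was 13.97, 14.18, 13.99 and 13.84 on the db/db arrays and 14.34, 14.21, 14.24, 14.21 and 14.22 on the BKS arrays. Every db/db array lay below every BKS array, by a small margin for db/db 2. The difference was -0.25 (SE 0.10, limma adjusted p = 0.191), with -0.19 among low and -0.30 among high 18S arrays. Ndufs4, a subunit whose loss causes a fatal encephalopathy in mice, read 12.15, 12.16, 12.17 and 12.08 on the db/db arrays and 11.70, 11.90, 11.88, 11.91 and 12.07 on the BKS arrays. The db/db values were close to each other, and BKS 5 came near them. The difference was 0.25 (SE 0.10, limma adjusted p = 0.224). Ndufa7 and Ndufa2 stood at 0.23 and 0.12. The 5 probe sets of Ndufa7 ran from 0.22 to 0.59, and none passed in a fit over all probe sets (limma, adjusted p from 0.0798 to 0.583). Ndufa6, Ndufa9 and Ndufa12 lay between 0.00 and 0.02, and for Ndufa6 the 95% interval ran from -0.19 to 0.20.

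Ndufab1, the mitochondrial acyl carrier protein, which serves fatty acid synthesis in mitochondria and is also a subunit of complex I, stood at 0.21 (SE 0.12, limma adjusted p = 0.428). Ndufa4, which was first described in complex I and is now counted with cytochrome c oxidase, read 13.96, 13.94, 14.26 and 13.92 on the db/db arrays and 13.19, 13.66, 13.42, 13.64 and 13.87 on the BKS arrays. The groups did not overlap, with BKS 5 just below the lowest db/db array. The difference was 0.46 (SE 0.14, limma adjusted p = 0.0733), and without BKS 5 it was 0.54 and passed (adjusted p = 0.0347). Its relative Ndufa4l2, known as a gene induced by low oxygen, was dim. Its signals were 103.9, 162.7, 44.8 and 16.4 on the db/db arrays and 143.4, 88.7, 61.5, 111.7 and 124.8 on the BKS arrays. The db/db values spread on both sides of the BKS values, and the difference was -0.52 (SE 0.44, limma adjusted p = 0.617). It was 0.52 in the low 18S arrays fitted alone.

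The 8 Ndufaf assembly factors had a median of 0.11 and no call. Ndufaf1, which helps to build the membrane arm, read 10.98, 10.89, 11.19 and 11.53 on the db/db arrays and 10.80, 10.29, 10.71, 10.99 and 11.02 on the BKS arrays. The groups overlapped, and in both the high 18S arrays were the highest. The difference was 0.39 (SE 0.17, limma adjusted p = 0.264). Ndufaf5, which hydroxylates an arginine of Ndufs7, stood at 0.40 (SE 0.20, limma adjusted p = 0.346), and its partner Ndufaf8 at -0.11 (SE 0.12, limma adjusted p = 0.713). The differences of Ndufaf3, Ndufaf4 and Ndufaf7 lay between -0.08 and -0.01. Those of Ndufaf2 and Ndufaf6 were 0.22 and 0.36, with 95% intervals of -0.31 to 0.75 and -0.18 to 0.90.

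Probe sets of the same member often differed. A second limma fit tested 88 Nduf probe sets among 34945, and it called 2 higher and 0 lower (all probe sets 1.97% and 1.51%). In that fit Ndufb7 missed the threshold (limma, adjusted p = 0.0665). One call was a second probe set of Ndufa5, a peripheral subunit near the ubiquinone site. Its signals were 4942.3, 4879.6, 6926.0 and 6596.8 on the db/db arrays and 2108.1, 2950.3, 1945.1, 3524.0 and 2918.2 on the BKS arrays. Every db/db array was well above every BKS array, with a difference of 1.10 (SE 0.17, limma adjusted p = 0.00254). The brighter probe set of Ndufa5 had signals of 9610.9, 9355.6, 10760.5 and 11691.8 on the db/db arrays and 9852.2, 9654.6, 9110.3, 11060.7 and 9450.3 on the BKS arrays. Those values overlap, and the difference was 0.04 (SE 0.10 in the gene fit, limma adjusted p = 0.872).

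The other call was a probe set of Ndufs4 with signals of 442.4, 578.1, 646.3 and 622.3 on the db/db arrays and 262.7, 301.0, 444.4, 285.6 and 236.8 on the BKS arrays. After normalization its groups did not overlap, and the difference was 0.93 (SE 0.22, limma adjusted p = 0.0331), against 0.25 on the brightest probe set. The remaining probe sets of Ndufs4 stood at -0.14 and -0.03. Of 22 members with several probe sets, 12 had differences of opposite signs. Some of these were within their error, as for Ndufv2 at -0.09 (SE 0.11) and 0.06 (SE 0.10). The spread exceeded 0.5 for 5 of the 22: Ndufa3 (-0.19 to 0.88), Ndufs4 (-0.14 to 0.93), Ndufa5 (0.04 to 1.10), Ndufab1 (-0.56 to 0.43) and Ndufs8 (-0.47 to 0.38). Dim probe sets gave the 0.88 of Ndufa3 (SE 0.34, mean level 7.14 in db/db and 6.26 in BKS liver) and the -0.56 and 0.43 of Ndufab1 (SE 0.47 and 0.38). Ndufb7, Ndufc1 and Ndufa10 had probe sets that differed by at most 0.08. The second set of Ndufa10 was dim, however (mean level 7.57 in db/db and 7.10 in BKS liver). Its difference of 0.48 had an SE of 0.49, so its closeness to the brighter set says little. What the probe sets of 1 gene each bind was not analysed here. By the naming of this array type, 5 of the 44 probe sets used end in _s_at and 3 in _x_at, which mark sets that can also bind other transcripts. Ndufs8, Ndufa3 and Ndufa12 are the members read by an _x_at set.

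**Figure D3:**
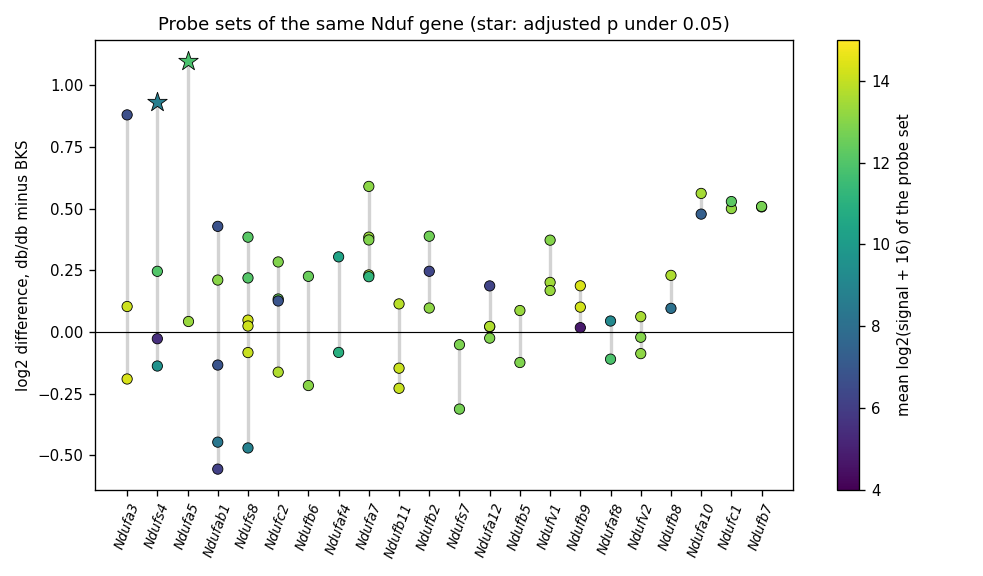
Difference in log2(signal + 16), db/db minus BKS, for each probe set of the 22 Nduf genes with several; stars passed the test over all probe sets, colour gives the probe set's own mean level, and grey lines join probe sets of 1 gene. The stars belong to Ndufa5 (1.10) and Ndufs4 (0.93), each far above the other probe sets of its gene, while those of Ndufb7 and Ndufc1 coincide near 0.5.

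In the fit with both terms, members were called for the 18S split as well as for genotype. Beside the 4 called for genotype (all genes 4.11% higher and 4.13% lower), 6 of 44 members were higher on high than on low 18S arrays and 0 were lower (limma, all genes 1.68% and 1.82%; at an unadjusted p under 0.05, 11 and 3 members). They were Ndufaf2, a late assembly factor (0.71), Ndufb6 (0.66), Ndufb10 (0.56) and Ndufb3 (0.39) of the distal membrane arm, and Ndufc1 (0.50) and Ndufs5 (0.45) of the proximal membrane arm, with adjusted p from 0.0188 to 0.0446. The members are bright, and shares among the brightest genes are not given for this fit. For Ndufaf2 the high 18S arrays read 9.72 and 9.85 in db/db and 9.53 and 9.74 in BKS liver, and the low 18S arrays 8.85 and 9.30 in db/db and 8.91, 8.93 and 8.95 in BKS liver. All 4 high 18S arrays lay above all 5 low ones. Some markers of non-parenchymal cells also differed by the 18S split, with genotype in the fit. Of 8 macrophage markers 5 were lower on high 18S arrays (limma; Cd5l at -1.38, adjusted p = 0.00337), and their summed signal was 3359 to 7299 on high and 8090 to 15691 on low 18S arrays. Of 7 endothelial markers 1 was lower (Clec4g at -1.02, adjusted p = 0.00144), with sums of 1609 to 2577 on high and 3531 to 4037 on low 18S arrays, and of 7 stellate cell markers 2 were lower (Dcn at -1.85, adjusted p = 0.00323, and Col3a1 at -0.72, adjusted p = 0.0189), with sums of 2765 to 9422 on high and 8261 to 14047 on low 18S arrays. No marker of these or the other cell types was called higher on high 18S arrays, and 0 of 7 hepatocyte markers were called either way (limma; 1 was lower at an unadjusted p under 0.05). The lists were not uniform. Without a call, the stellate markers Pdgfrb and Col1a1 stood at 0.38 and 0.20 and the endothelial marker Cdh5 at 0.04. The 5 cholangiocyte markers had a median of 0.57, with 1 higher and 0 lower at an unadjusted p under 0.05 (limma). The part of these cells in the 18S differences of the members was not tested. The same test on the split by the Actb ratio, which differs from the 18S split only in BKS 1, called 0 higher and 0 lower among the members (limma, all genes 0% and 0.0055%; 8 and 2 members at an unadjusted p under 0.05). The genotype difference had the same sign in both 18S sets for 33 of 44 members, 23 of them positive. The median was 0.17 among low 18S arrays (2 db/db and 3 BKS) and 0.05 among high 18S arrays (2 db/db and 2 BKS). By the Actb split it was 0.11 among arrays of low and 0.09 among arrays of high ratio, and the sign was the same in both for 32 members.

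**Figure D4:**
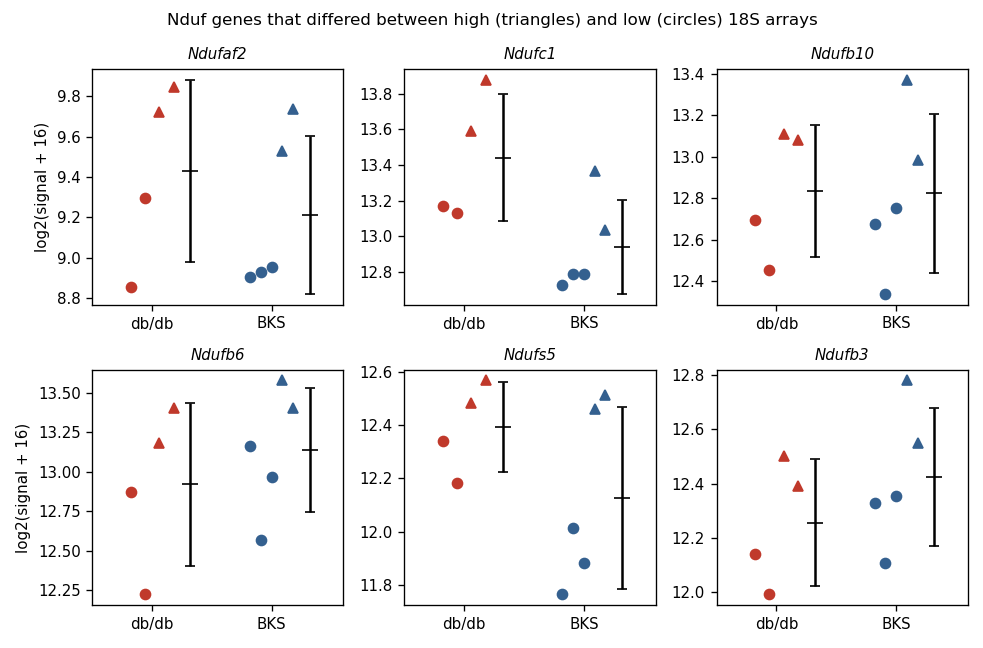
Level per array, log2(signal + 16), of the 6 Nduf genes that were higher on high 18S arrays (triangles) than on low 18S arrays (circles), with db/db arrays left of BKS arrays; bars give the mean and SD (n = 4 db/db and 5 BKS). Triangles lie above circles within both genotypes, by 0.39 to 0.71 on the log2 scale in the fit.

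The lists of complex I assembly and upkeep and of other entry points to ubiquinone held more calls than the Nduf genes. No test compared the lists, which were chosen with earlier results of these data known. In the same limma fit 2.89% of all genes were called higher and 2.6% lower. Among the 1820 brightest genes the shares were 9.78% and 8.08%. Of 15 measured genes outside the Nduf family that act in the assembly or upkeep of complex I, 5 rose and 0 fell, and the median was 0.42. They were Acad9, an acyl-CoA dehydrogenase-like protein that joins Ndufaf1 in building the membrane arm (0.82, limma adjusted p = 0.00203), Nubpl, which supplies iron-sulfur clusters (0.82, 0.00863), Tmem70, known mainly for assembly of ATP synthase (0.67, 0.00562), Sirt3, a mitochondrial deacetylase that is not an assembly factor (0.58, 0.0114), and Dmac2 (0.91, 0.0164). Without Sirt3 the list had 4 of 14 higher and a median of 0.32. Acad9 read 11.0 ± 0.18 in db/db and 10.1 ± 0.12 in BKS liver (SD, n = 4 and 5). Its other probe sets stood at 0.06 and 0.18 and that of Dmac2 at -0.03. Without db/db 3 or db/db 4 Dmac2 missed the threshold (limma, adjusted p = 0.0692 and 0.0602). Of 8 other enzymes or carriers that feed electrons to ubiquinone, 3 rose and 0 fell (median 0.26). These were Sqor, which oxidises sulfide (1.05, limma adjusted p = 3.19e-04), Prodh, which oxidises proline (0.68, 6.50e-04), and Etfdh, which accepts electrons from fatty acid oxidation (0.77, 0.0145). The second, dim probe set of Sqor stood at -0.28, and Etfdh missed the threshold without db/db 3 or db/db 4 (limma, adjusted p = 0.0584 and 0.0501). Of 37 subunits of complexes II to V, 2 rose and 0 fell with a median of 0.09, as among the Nduf subunits: Sdhb of complex II (0.46, limma adjusted p = 0.0120) and Uqcrfs1 of complex III (0.39, 0.0254). Uqcrfs1 missed the threshold without BKS 3, BKS 4, BKS 5, db/db 1, db/db 2 or db/db 3 (limma, adjusted p from 0.0531 to 0.0688).

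**Figure D5:**
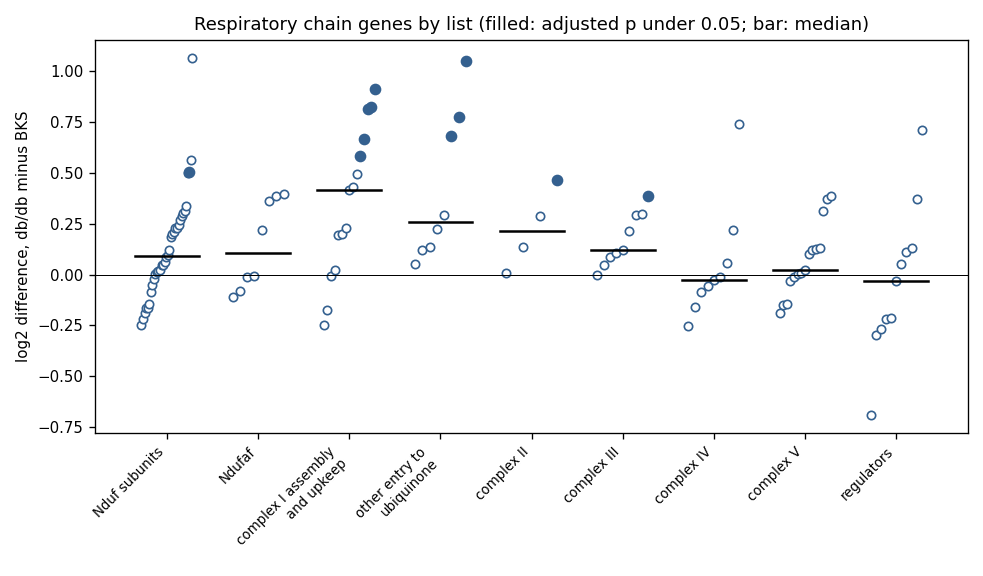
Difference in log2(signal + 16), db/db minus BKS, of each measured gene by list; filled points passed the test over all genes and bars give the list's median. The bar of the Nduf subunits lies at 0.09, and the lists of complex I assembly and upkeep (median 0.42) and other entry points to ubiquinone (0.26) hold 5 and 3 filled points. Over all genes 2.89% were called higher and 2.6% lower.

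None of 11 regulators of respiratory chain genes passed (limma; at an unadjusted p under 0.05, 1 was higher and 1 was lower). Ppargc1a, the coactivator PGC-1 alpha, stood at 0.71 (SE 0.22, limma adjusted p = 0.0907) and its relative Pprc1 at -0.69 (SE 0.19, limma adjusted p = 0.0569), both with groups that did not overlap. Nrf1, Gabpa and Yy1, whose motifs were searched above, stood at -0.03, -0.22 and -0.21.

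Of the markers of other liver cells, 1 was called between the genotypes, and it was lower in db/db. The summed signal of 8 macrophage markers was 3359 to 8537 in db/db and 5790 to 15691 in BKS liver, with a median difference of -0.50 and no call. That of 7 stellate cell markers was 5514 to 14047 in db/db and 2765 to 12185 in BKS liver (median 0.62, no call). The sum of 7 endothelial markers was 1609 to 4037 in db/db and 1777 to 3921 in BKS liver, and that of 5 cholangiocyte markers 264 to 650 in db/db and 541 to 747 in BKS liver. The sum of 7 lymphocyte markers was 456 to 934 in db/db and 569 to 1791 in BKS liver, and that of 3 adipocyte markers 61.7 to 176.6 in db/db and 42.5 to 158.2 in BKS liver. None of these 4 lists held a call. For 3 erythroid markers the sums were 875 to 2253 in db/db and 2314 to 4010 in BKS liver, and Alas2 fell by 1.20 on the log2 scale (limma adjusted p = 0.0114). The median difference of these 3 was -0.02 and the highest 0.07, so the fall was that of Alas2 alone. Mean levels in this list ran from 6.12 to 10.93, so its sums mostly follow the brightest gene. The part of these cells in the genotype differences of the Nduf genes was not tested.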

How the data were processed

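Total RNA of frozen liver (8 µg per sample, per the labels' protocols) was labelled with biotin and hybridised to single-colour arrays. The authors deposited linear intensities for each probe set, and the deposited intensity values have a mean of 500 after trimming 2% at each end. The software behind them is not given in the sources used here. The deposited values were transformed to log2(value + 16) and quantile normalized, since array medians spanned 0.60, and each gene was read from its brightest probe set with 1 symbol (34945 of 45101; 932 had several symbols, 9160 none listed and 64 were controls). Genes were tested with limma 3.58.1 in R 4.3.3 (lmFit, eBayes with trend), with no filter on dim genes. The steps were tested on simulated data.

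The Nduf family, the gene lists and the tests were chosen with earlier results of these data known, and the members of the family follow from their symbols. The members named by rule are those past the threshold, those with the smallest p in each direction and the largest change in each role, and those whose probe sets differ by over 0.5 with opposite signs, and from each list the smallest p in each direction. Others were picked after their values were seen. Equal replicate numbers were not taken as pairs, since the correlations of deviations from group means were 0.03, 0.17, -0.07 and 0.13. Alternatives changed the scaling, amount added, filter, probe set rule, eBayes settings, array weights, blocks and arrays used. The Actb split, the tests of the 18S split and the alternatives for other lists were added after the data were seen. Promoter sequences are from RefSeq (GRCm38.p6).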

Additional observations from a re-analysis of the deposited data

Results flagged for a closer look

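In 5 of 88 groups of arrays (44 genes in each genotype) a single array stood apart from the others of its group by Dixon's test at the 95% level, a rate that chance gives in about 1 of 20 groups. Ndufa4 was highest on db/db 3, at 14.26 on the log2 scale, where the next db/db array read 13.96. Ndufv2 was highest on db/db 2, at 13.69, where the next read 13.57. Among BKS arrays, Ndufv3 was highest on BKS 1 at 14.34 (next 14.24), Ndufs8 was highest on BKS 2 at 14.39 (next 14.17) and Ndufb8 was lowest on BKS 5 at 13.36 (next 13.54). The 5 values lie on 5 different arrays.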

How the results depend on the processing

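The count of Nduf genes called higher, 1 as reported, was 0 with median centring (all genes 1.78%) and with eBayes without a trend (1.4%). It was also 0 in the low and high 18S arrays alone (1.19% and 1.32%) and in the low and high Actb ratio arrays alone (0.61% and 0.89%). Beside 2.89% of all genes called higher as reported, it was 2 with dim genes left out (all genes 4.95%) and with robust eBayes (3.06%), 4 with the 18S split as a block (4.11%) and 3 with the Actb split as a block (3.61%). With the replicate number as a block it was also 4 (3.28%), and 2 of 4 db/db arrays correlated best with the BKS array of their own number. Leaving out 1 array gave 0 to 3 calls (all genes 1.7% to 2.85%), with 3 without BKS 2 (Ndufa10, Ndufb4 and Ndufb7, all genes 2.59%). Without quantile normalization the 1 call was Ndufa10 and not Ndufb7 (all genes 2.57%). With the probe set of largest variance or the mean of all probe sets it was Ndufa5 (2.03% and 2.23%). No alternative called a member lower (all genes 0.511% to 4.66% lower). Shares among the brightest genes are not given for these settings. The median of the members was 0.18 with median centring (all genes 0.04), and 0.07 to 0.13 with 1 array left out. It was positive in all settings run. Groups did not overlap for 6 members as reported (9.15% of all genes), for 1 without quantile normalization (8.88%) and for 2 with median centring (6.65%). In the smaller sets alone, where overlap is less likely by construction, the number of 44 was 17 in the low 18S (all genes 33.1%), 28 in the high 18S (45.4%), 22 in the low ratio (44.8%) and 20 in the high ratio arrays (30.9%). With 1 array left out it was 6 to 10 (all genes 10.6% to 12.9%). For the other genes of complex I assembly and upkeep the count of 5 was 3 with either other probe set rule and with eBayes without a trend, 2 in the low 18S and 1 in the high 18S arrays alone, 0 in the low ratio and 1 in the high ratio arrays alone, and 4 to 5 with 1 array left out. The count of 3 other entry points was 0 in the low ratio arrays and 2 to 3 with 1 array left out. The count of 2 for complexes II to V was 0 without quantile normalization, with median centring, with eBayes without a trend and in each of the 4 sets alone, and 1 to 3 with 1 array left out. The shares of all genes called higher, given above for the same settings, apply to these lists too. Each of those shares was below the 2.89% as reported. Signs turned for small or probe-set-dependent differences. With the probe set of largest variance Ndufb11 stood at 0.11, Ndufa3 at 0.88, Ndufs4 at -0.028, Ndufaf8 at 0.044, Ndufab1 at -0.56, Ndufs8 at -0.47, Dmac2 at -0.026 and Sqor at -0.28, and with the mean of probe sets Ndufa3 stood at 0.26 and Ndufab1 at -0.10. Ndufa4l2 stood at 0.52 in the low 18S and 0.73 in the low ratio arrays. Ndufs7 stood at 0.050 with median centring, 0.0044 with the replicate block, 0.16 in the low 18S arrays, 0.044 in the low ratio arrays, and -0.14 to 0.025 with 1 array left out (above 0 without BKS 2, BKS 5 or db/db 4). Ndufs8 stood at -0.014 without quantile normalization, -0.0092 in the high 18S arrays, -0.031 in the high ratio arrays, and -0.073 to 0.14 with 1 array left out (below 0 without db/db 2). The cause of these shifts was not tested.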
